A study of Mus musculus with 12 samples.

Results

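The genes described here are 10 subunits of cytoplasmic dynein and of its partner complex dynactin: Dync1h1, Dync1i1, Dync1i2, Dync1li1, Dync1li2, Dynll1, Dynll2, Dctn1, Dctn2 and Dctn3. They were taken by gene symbol from the expression tables, where all 10 were found among 39174 genes, and all 10 were abundant enough to be tested. Messages of all 10 were listed above 0 in every axonal and every somatodendritic library. None passed the test for a difference between the compartments, which just 1 of all 14122 tested genes passed. The levels within the complexes were uneven: Dynll1 and Dync1h1 stood far above the other members, and Dync1i1 had the lowest mean on both sides.

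The RNA came from cultured primary motoneurons of CD-1 mice with a knockdown of Smn in the cultured cells. Smn corresponds to the gene lost in human spinal muscular atrophy. There were 6 libraries of total RNA from the axonal compartment and 6 from the somatodendritic compartment of microfluidic chambers, which let axons grow into a space apart from the cell bodies. Both groups carry the knockdown, and libraries of neurons without it were not analysed here, so the values describe axons against cell bodies and dendrites of cultures labelled as knockdown and not the effect of Smn. The series title concerns Plastin 3, TrkB signalling and calcium balance, and does not name dynein.

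Cytoplasmic dynein is the motor that walks toward the minus ends of microtubules, which in axons means from the growth cone back to the cell body. A pair of heavy chains holds the motor domains, and intermediate, light intermediate and light chains join the heavy chains to each other and to cargo. Dynactin and adaptor proteins switch the motor on and tie it to vesicles, including endosomes that carry activated neurotrophin receptors such as TrkB. Mutations of the human genes DYNC1H1 and DCTN1 cause motor neuron diseases.

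The light chain genes Dynll1 and Dynll2 encode nearly the same small protein, and their coding sequences are shown because they bear on whether the fragments of each gene can be told apart. The Dynll1 coding sequence lies within chr5:115298699-115300644 and that of Dynll2 within chr11:87981436-87984003, both on the minus strand of GRCm38 with the introns inside these spans, as annotated in GENCODE M21. Each is given from the start codon and without its stop codon, and capitals mark the bases that differ between the genes.
Dynll1: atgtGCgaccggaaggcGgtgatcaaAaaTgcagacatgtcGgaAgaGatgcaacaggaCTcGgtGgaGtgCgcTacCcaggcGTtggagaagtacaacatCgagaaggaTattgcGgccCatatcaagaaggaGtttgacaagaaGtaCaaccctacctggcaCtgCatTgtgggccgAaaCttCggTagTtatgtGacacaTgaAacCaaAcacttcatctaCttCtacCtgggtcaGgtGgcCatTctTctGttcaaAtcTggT
Dynll2: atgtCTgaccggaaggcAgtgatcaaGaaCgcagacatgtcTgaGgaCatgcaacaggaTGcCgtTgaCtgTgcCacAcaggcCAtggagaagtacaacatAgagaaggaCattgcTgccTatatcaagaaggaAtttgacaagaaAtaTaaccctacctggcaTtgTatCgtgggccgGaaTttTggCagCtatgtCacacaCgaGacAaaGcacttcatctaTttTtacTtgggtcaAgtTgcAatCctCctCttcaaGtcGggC
Of the 267 coding bases, 217 (81.3%) were identical and 50 differed, 45 of them at the third position of a codon. The longest run of identical bases was 16 long, so a longer read from the coding part holds at least a single base that tells the genes apart. The coding sequences of Dync1i1 and Dync1i2 were 72.3% identical with a longest shared run of 17 bases, and those of Dync1li1 and Dync1li2 were 69.8% identical with a longest run of 15. Of the 218 stretches of 50 bases in the Dynll1 coding sequence, 4 also occurred in BC048507, 9 in Gm11582 and 3 in Gm6788, genes listed above 0 in 3, 1 and 3 of the 12 libraries. Stretches were also shared by Dctn1 with Gm11702, by Dync1h1 with Gm35558 and by Dync1li2 with K230015D01Rik.

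Each table gave FPKM, the read fragments of a gene relative to transcript length and to the mapped fragments of the library, with a lower and an upper confidence bound. FPKM values were divided by a library factor and are called scaled FPKM. The factor is the median ratio over the 5607 genes above 0 in all 12 libraries. Tests were limma fits over 14122 genes on log2(scaled FPKM + 1), in which a fold change understates the change of low genes, and adjusted p-values are Benjamini-Hochberg values over all of these genes. The labels do not say whether replicates were separate cultures, so the p-values refer to the spread between these 12 samples, part of which may be technical. In bulk RNA, fewer axons or cell bodies and less of a message in each cannot be told apart.

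The libraries were shallow, at 217000 to 716000 fragments on the axonal side and 55000 to 358000 on the somatodendritic side, the lowest being somatodendritic replicate 4. Replicates 1 and 2 differed from replicates 3 to 6 in the share of FPKM in short non-coding RNA genes, which was 5.61 to 8.68% against 12.9 to 22.0% in axonal and 6.18 to 6.67% against 15.7 to 20.9% in somatodendritic libraries. Values within these sets are therefore given for each member and for the ratio of the intermediate chains, although the labels name no batch. The mitochondrial share of FPKM was 9.71 to 53.5% on the axonal side and 10.4 to 12.0% on the somatodendritic side, with the highest share in axonal replicate 2. Of 8 motoneuron markers, 7 were in the tables, and their summed level was 0 to 10.1 scaled FPKM on the axonal side and 0 to 6.01 on the somatodendritic side. The defining motoneuron genes Chat and Mnx1 were listed at 0 in all 12 libraries, while 9 general neuronal markers summed to 1253 to 1666 on the axonal side and 1415 to 2008 on the somatodendritic side. The 7 astrocyte and radial glia markers summed to 138 to 775 on the axonal side and 282 to 328 on the somatodendritic side. Among them Vim was at 59.8 to 493 on the axonal side and 48.5 to 148 on the somatodendritic side. Of the 7, 5 had log2 fold changes, axonal minus somatodendritic, below 0 and 2 above. The 7 fibroblast and smooth muscle markers summed to 59.5 to 379 on the axonal side and 8.67 to 32.7 on the somatodendritic side, most of it from Acta2 and Thbs1, and Dcn was at 0 in all 12. The summed ranges were 4.92 to 35.1 on the axonal side and 5.07 to 34.6 on the somatodendritic side for 5 Schwann cell and oligodendrocyte markers, and for 4 microglial ones they were 0.293 to 50.1 on the axonal side and 2.81 to 22.2 on the somatodendritic side. Of the 39 markers listed, 27 were abundant enough to be tested and 0 of these passed the limma test. None of the motoneuron markers and just 3 of the 7 fibroblast and smooth muscle markers were among those tested. The part of these other cells in the values below was not tested.

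**Figure D1:**
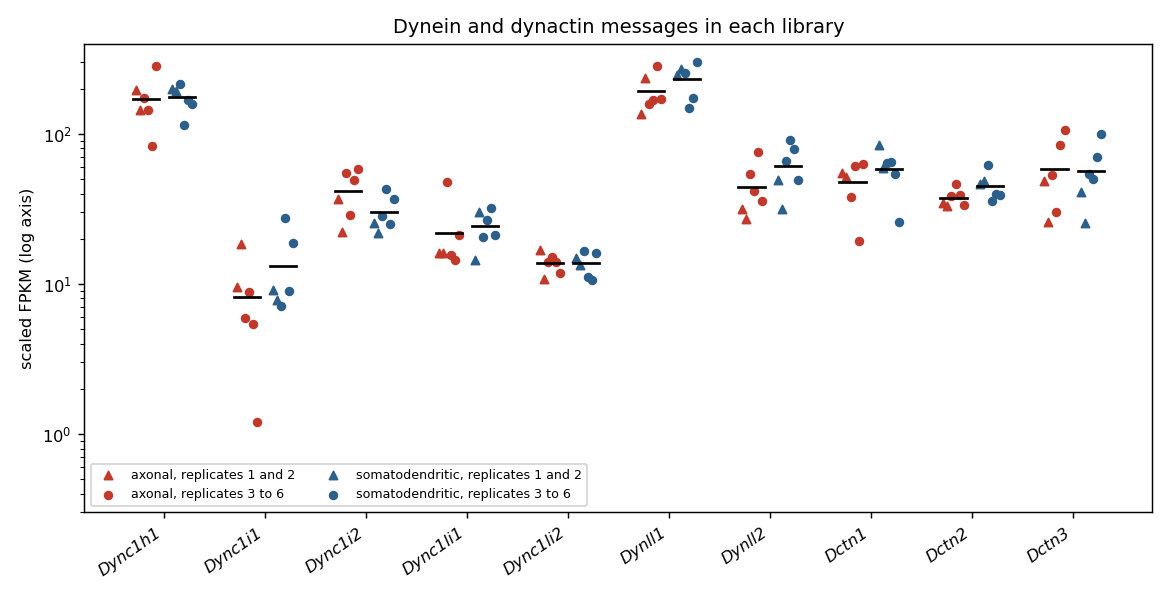
Scaled FPKM of the 10 members in every library on a log axis, with axonal libraries in red, somatodendritic libraries in blue, triangles for replicates 1 and 2, circles for replicates 3 to 6, and a black bar at the mean of each group of 6. The clouds of both compartments overlap for every gene, Dynll1 and Dync1h1 lie on top, and the lowest point is Dync1i1 in axonal replicate 6 at 1.21.

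Dync1h1, the heavy chain that holds the motor, lies on chromosome 12 from 110601452 to 110666945. It had a lowest, median and highest level of 82.5, 159 and 283 scaled FPKM in axonal libraries, against 114, 181 and 216 in somatodendritic libraries. Its mean was 170.5 ± 66.7 on the axonal side and 175.0 ± 36.5 on the somatodendritic side (SD, n = 6 each). The somatodendritic range lay inside the axonal one, since axonal replicate 5 was below and axonal replicate 6 above all somatodendritic libraries. The log2 fold change, axonal minus somatodendritic, was -0.10 ± 0.26 (SE), with a 95% interval of -0.65 to 0.44 and a limma adjusted p of 0.915. Without axonal replicate 5 it turned to 0.09, so no direction is given for Dync1h1. By replicate set it was -0.23 in replicates 1 and 2 and -0.04 in replicates 3 to 6. In each library Dync1h1 stood among the top 0.467 to 3.96% of tested protein-coding genes. This level sums 8 annotated transcripts of 427 to 14342 bases, and the antisense gene Gm17111 overlaps the locus. Whether the reads carry strand is not stated by the labels or headers.

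The intermediate chains bind dynactin and sit at the base of the motor, and mammals have a pair of genes for them. Dync1i1, the form enriched in neurons, lies on chromosome 6 from 5725639 to 6028039. Its lowest, median and highest levels were 1.21, 7.34 and 18.3 scaled FPKM in axonal libraries, against 7.15, 9.04 and 27.4 in somatodendritic libraries. The 3 lowest of the 12 values were axonal, and the highest was somatodendritic replicate 4, the shallowest library. The means were 8.19 ± 5.77 on the axonal side and 13.2 ± 8.15 on the somatodendritic side (SD, n = 6 each), with a log2 fold change of -0.73 ± 0.52 (SE; 95% interval -1.83 to 0.37; limma adjusted p = 0.690). Taken alone, replicates 1 and 2 gave 0.60 and replicates 3 to 6 gave -1.397, and neither passed the test. Without axonal replicate 6, whose value of 1.21 rests on the fewest fragments, the log2 fold change was -0.37. The deposited lower bound of Dync1i1 was 0 in 11 of 12 libraries, so its single values are imprecise, and the antisense gene 1700019G24Rik overlaps the locus.

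Dync1i2, the intermediate chain found in most cell types, lies on chromosome 2 from 71211706 to 71263303. Its lowest, median and highest levels were 22.3, 42.9 and 58.1 scaled FPKM in axonal libraries, against 21.8, 27.0 and 43.0 in somatodendritic libraries. Axonal replicates 3, 5 and 6 were above all somatodendritic libraries, and the other 3 lay among them. The mean was 41.5 ± 14.6 on the axonal side and 30.1 ± 8.09 on the somatodendritic side (SD, n = 6 each), with the largest positive log2 fold change of the 10 members, 0.41 ± 0.29 (SE; 95% interval -0.20 to 1.03; limma adjusted p = 0.689). It was above 0 in both replicate sets, at 0.26 in replicates 1 and 2 and 0.49 in replicates 3 to 6.

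Within a library, the level of Dync1i2 was 1.22 to 47.9 times that of Dync1i1 on the axonal side and 1.57 to 3.96 times on the somatodendritic side, above it in all 12. The log2 ratio of Dync1i1 to Dync1i2 averaged -2.40 ± 1.53 on the axonal side and -1.26 ± 0.42 on the somatodendritic side (SD, n = 6 each). Axonal replicates 3, 5 and 6 had ratios below all somatodendritic ones, axonal replicate 2 had the highest ratio of all, and the other 2 lay among the somatodendritic values. The difference of -1.14 ± 0.65 (SE) did not pass an exact two-sided permutation test (p = 0.102, adjusted p = 0.455 over the 7 ratios compared). Without axonal replicate 2, the library with 53.5% mitochondrial FPKM, the difference was -1.57 with an exact permutation adjusted p of 0.0455. Within replicates 3 to 6 it was -1.88 (exact permutation p = 0.0571, adjusted p = 0.4). These libraries have 70 arrangements, too few for a single ratio to pass after adjustment over the 7. Without axonal replicates 1 and 2 the difference was -1.82 (exact permutation adjusted p = 0.0667). The sign was the opposite in replicates 1 and 2 alone, at 0.34, and these 4 libraries cannot reach an exact permutation p below 0.333. Without axonal replicate 6, where Dync1i2 was at 47.9 times the level of Dync1i1, the difference was -0.68 (exact permutation adjusted p = 0.720). The plain mean of the differences within the replicate sets was -0.77, which counts replicates 1 and 2 as much as replicates 3 to 6. The call thus appears when axonal replicate 2 is left out and rests on low Dync1i1 values, all but 1 of which have a lower bound of 0.

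The light intermediate chains hold the adaptors that link dynein to its cargo. Dync1li1 lies on chromosome 9 from 114688790 to 114724302, and its lowest, median and highest levels were 14.3, 16.1 and 47.7 scaled FPKM in axonal libraries, against 14.4, 23.8 and 32.0 in somatodendritic libraries. The value of 47.7 in axonal replicate 3 stood apart from the other 5 axonal values, which reached 21.1 and otherwise overlapped with the somatodendritic values. The means were 21.8 ± 12.9 on the axonal side and 24.1 ± 6.65 on the somatodendritic side (SD, n = 6 each; log2 fold change -0.23 ± 0.33 SE, 95% interval -0.94 to 0.48, limma adjusted p = 0.842). The log2 fold change of Dync1li1 was -0.36 in replicates 1 and 2 alone and -0.17 in replicates 3 to 6 alone, and leaving out single libraries moved it between -0.48 (without axonal replicate 3) and -0.14 (without axonal or somatodendritic replicate 5). Dync1li2 lies on chromosome 8 from 104417674 to 104443047, and its lowest, median and highest levels were 10.9, 14.0 and 16.8 in axonal and 10.6, 14.1 and 16.5 in somatodendritic libraries, ranges that nearly coincided. Its means of 13.8 ± 2.15 on the axonal side and 13.8 ± 2.50 on the somatodendritic side (SD, n = 6 each) gave a log2 fold change of 0.0055 ± 0.29 (SE; 95% interval -0.61 to 0.62; limma adjusted p = 0.996), whose sign turned with the scaling. It was -0.05 in replicates 1 and 2 alone and 0.03 in replicates 3 to 6 alone. Dync1li1 was at 0.954 to 3.43 times the level of Dync1li2 on the axonal side and 0.972 to 3.01 times on the somatodendritic side. The log2 ratio differed by -0.24 between the compartments (0.50 ± 0.68 in axonal, 0.74 ± 0.61 in somatodendritic libraries, SD, n = 6 each; exact permutation p = 0.522, adjusted p = 0.763).

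The light chains Dynll1 and Dynll2 are small dimeric hubs that bind dynein and also many proteins outside it. Dynll1 lies on chromosome 5 from 115297110 to 115300999 and had the highest mean of the 10 members on both sides. Its lowest, median and highest levels were 136, 169 and 285 scaled FPKM in axonal libraries, against 148, 249 and 301 in somatodendritic libraries. Axonal replicate 1 was below all somatodendritic libraries, and the others overlapped with them. The means were 192.4 ± 56.4 on the axonal side and 231.5 ± 58.8 on the somatodendritic side (SD, n = 6 each; log2 fold change -0.27 ± 0.22 SE, 95% interval -0.75 to 0.20, limma adjusted p = 0.744). The log2 fold change of Dynll1 was -0.51 in replicates 1 and 2, -0.15 in replicates 3 to 6 and -0.18 without axonal replicate 1. In each library Dynll1 was among the top 0.509 to 1.42% of tested protein-coding genes.

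Dynll2, on chromosome 11 from 87979525 to 87987533, had a lowest, median and highest level of 27.1, 38.7 and 76.0 scaled FPKM in axonal libraries, against 31.7, 57.8 and 90.4 in somatodendritic libraries. Axonal replicates 1 and 2 were below all somatodendritic libraries, replicate 1 barely so, and the other 4 overlapped with the somatodendritic libraries. The means were 44.4 ± 18.1 on the axonal side and 61.1 ± 21.7 on the somatodendritic side (SD, n = 6 each; log2 fold change -0.46 ± 0.31 SE, 95% interval -1.11 to 0.19, limma adjusted p = 0.676). For Dynll2 the replicate sets were close, with -0.42 in replicates 1 and 2 and -0.48 in replicates 3 to 6. Dynll1 stood above Dynll2 in all 12 libraries, at 2.94 to 8.74 times its level on the axonal side and 1.64 to 8.46 times on the somatodendritic side. The log2 ratio was 2.13 ± 0.52 on the axonal side and 1.94 ± 0.89 on the somatodendritic side (SD, n = 6 each; exact permutation p = 0.654, adjusted p = 0.763).

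Dctn1, on chromosome 6 from 83165920 to 83200117, encodes the largest dynactin subunit, which binds both the microtubule and the dynein intermediate chain. Its lowest, median and highest levels were 19.4, 53.0 and 63.2 scaled FPKM in axonal libraries, against 25.8, 61.7 and 83.7 in somatodendritic libraries. Axonal replicate 5 was the lowest of all 12 and the other axonal libraries lay within the somatodendritic range. The means were 47.9 ± 16.5 on the axonal side and 58.5 ± 19.0 on the somatodendritic side (SD, n = 6 each; log2 fold change -0.30 ± 0.33 SE, 95% interval -0.996 to 0.40, limma adjusted p = 0.783). It was -0.07 without axonal replicate 5, -0.18 without somatodendritic replicate 1 and -0.51 without somatodendritic replicate 6, so its size rests on single libraries. Replicates 1 and 2 gave -0.40 for Dctn1 and replicates 3 to 6 gave -0.25. The antisense gene Gm15624 overlaps Dctn1. Dync1h1 stood above Dctn1 in every library. The log2 ratio of Dctn1 to Dync1h1 was -1.81 ± 0.38 on the axonal side and -1.61 ± 0.58 on the somatodendritic side (SD, n = 6 each; exact permutation p = 0.507, adjusted p = 0.763).

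Dctn2, on chromosome 10 from 127266262 to 127281959, encodes dynamitin, a shoulder subunit whose excess takes dynactin apart. Its lowest, median and highest levels were 32.8, 36.8 and 46.0 scaled FPKM in axonal libraries, against 35.9, 43.0 and 61.7 in somatodendritic libraries. Axonal replicates 1, 2 and 6 were below all somatodendritic libraries, and the other 3 lay among them. The means were 37.4 ± 4.96 on the axonal side and 45.2 ± 9.40 on the somatodendritic side (SD, n = 6 each; log2 fold change -0.25 ± 0.22 SE, 95% interval -0.72 to 0.21, limma adjusted p = 0.757), and an exact two-sided permutation test of Dctn2 gave p = 0.0779, the lowest of the 10 members. Replicates 1 and 2 alone gave a log2 fold change of -0.48 and replicates 3 to 6 alone one of -0.14, and without somatodendritic replicate 3 it was -0.16. The protein-coding gene Mbd6 overlaps Dctn2 on the other strand.

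Dctn3 encodes a small subunit of the same shoulder and lies on chromosome 4 from 41714798 to 41723170, where Il11ra1 overlaps it on the other strand. It had a lowest, median and highest level of 25.9, 50.6 and 106 scaled FPKM in axonal libraries, against 25.5, 52.0 and 99.4 in somatodendritic libraries. Replicate 2 was lowest and replicate 6 highest on each side, and the ranges overlapped almost fully. The means of 58.0 ± 31.5 on the axonal side and 56.7 ± 25.6 on the somatodendritic side (SD, n = 6 each) gave a log2 fold change of -0.02 ± 0.38 (SE; 95% interval -0.82 to 0.78; limma adjusted p = 0.992). The sign differed between the replicate sets, with 0.12 in replicates 1 and 2 and -0.10 in replicates 3 to 6. The log2 ratio of Dctn1 to Dctn2 was 0.26 ± 0.68 on the axonal side and 0.31 ± 0.53 on the somatodendritic side (exact permutation p = 0.877), and that of Dctn3 to Dctn2 was 0.45 ± 0.84 on the axonal side and 0.23 ± 0.80 on the somatodendritic side (exact permutation p = 0.636; SD, n = 6 each). The difference in the ratio of Dctn1 to Dctn2 turned sign without axonal replicate 3 or 5 or somatodendritic replicate 1 or 4, and that of Dctn3 to Dctn2 without axonal replicate 6.

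**Figure D2:**
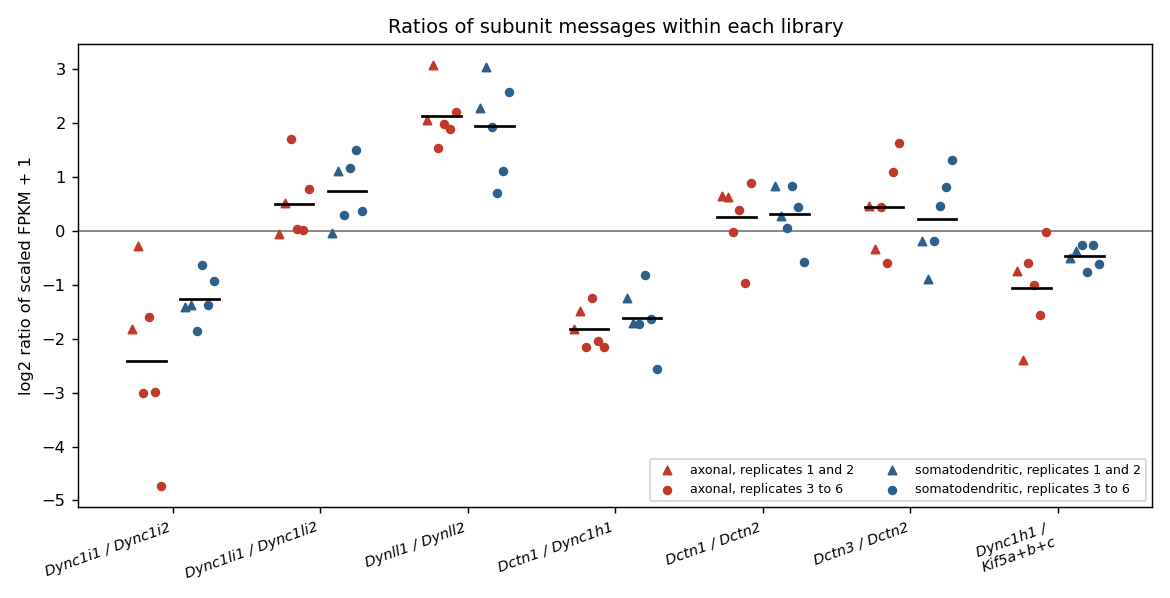
Log2 ratio of scaled FPKM + 1 between pairs of subunit genes within each library, and of Dync1h1 to the summed kinesin-1 heavy chains, with axonal libraries in red, somatodendritic libraries in blue and black bars at the means of 6 libraries. Dynll1 over Dynll2 is above 0 and Dync1i1 over Dync1i2 below 0 in all 12 libraries, and the axonal values of Dync1i1 over Dync1i2 spread from -4.74 to -0.27 against -1.85 to -0.63 in somatodendritic libraries.

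Read together, 0 of the 10 members passed the limma test at an adjusted p of 0.05, where 0.00708% of all tested genes passed, a single gene that was higher in axons. At an unadjusted limma p of 0.05 the count was also 0 of 10, against 8.84% of tested genes. The exact permutation test of single genes called 0 members and 0 of all genes. Its smallest possible p of 0.00216 was reached by too few genes to pass adjustment over 14122 genes, so it could call none. No member had groups that did not overlap, against 0.418% of genes fully higher and 0.29% fully lower in axonal libraries. The log2 fold change was below 0 for 8 of the 10 members and for 38.5% of all tested genes. Its median was -0.24 for the members and 0.20 for all genes, a gap of -0.44 that ranged from -0.52 to -0.32 over the alternatives tried. Replicates 1 and 2 alone gave a gap of -0.43 and replicates 3 to 6 alone one of -0.34. The members were not drawn at random and the gap carries no test. The median of all genes was 0.001 with FPKM as deposited and 0.05 with libraries brought to a common protein-coding sum, so the gap is given relative to it. Together the 10 members made up 0.273 ± 0.0663% of the FPKM of nuclear protein-coding genes on the axonal side and 0.341 ± 0.0250% on the somatodendritic side (SD, n = 6 each). Axonal replicate 2 was lowest at 0.172% and axonal replicate 6 highest at 0.378%, so the axonal range enclosed the somatodendritic one of 0.309 to 0.369%.

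**Figure D3:**
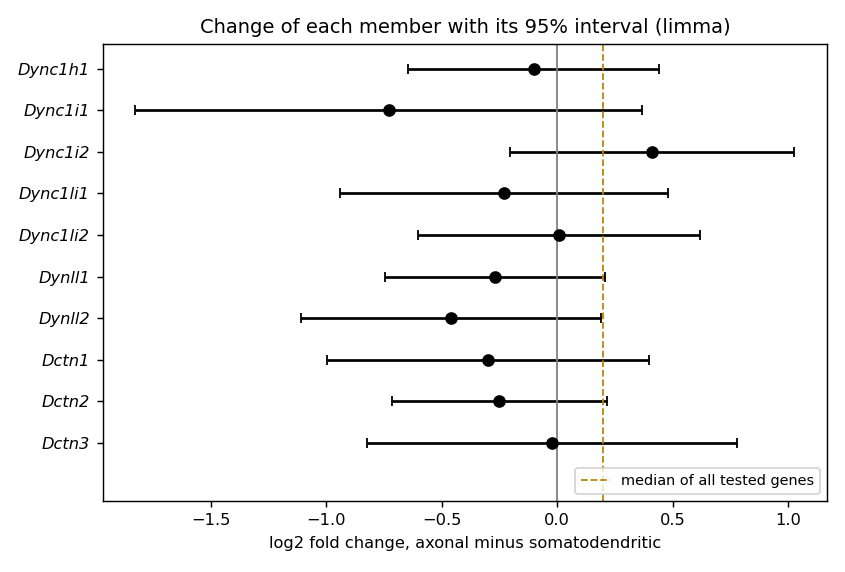
Log2 fold change of each member, axonal minus somatodendritic, with its 95% limma interval, beside a dashed line at the median of all tested genes. Every interval includes 0, the widest belongs to Dync1i1 (-1.83 to 0.37), and 8 of 10 points lie left of 0.

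By mean level the axonal order was Dynll1, Dync1h1, Dctn3, Dctn1, Dynll2, Dync1i2, Dctn2, Dync1li1, Dync1li2 and Dync1i1. The somatodendritic order was Dynll1, Dync1h1, Dynll2, Dctn1, Dctn3, Dctn2, Dync1i2, Dync1li1, Dync1li2 and Dync1i1. Dynll1 was above Dync1h1 in 3 of 6 axonal and 6 of 6 somatodendritic libraries. Below Dync1h1 the intervals of mean ± 1 SD were apart on both sides: it was above Dctn3 in 5 of 6 axonal libraries, and above Dynll2 in 6 of 6 somatodendritic libraries with no overlap of the ranges. These intervals overlapped for all other neighbours except Dync1li1 and Dync1li2 in somatodendritic libraries (24.1 ± 6.65 and 13.8 ± 2.50; SD, n = 6 each).

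How well each value was measured can be read from its confidence bounds, which lie 2 SDs to each side. Each value was expressed as the number of fragments whose counting error would give the same bounds, called effective fragments here. In genes with a single transcript, between 44.1 and 56.1% of values under 20 effective fragments lay within 0.02 of a whole number, against 4% expected without steps. Dync1li1, which has just 2 annotated transcripts, came out at 8 to 44.3 effective fragments on the axonal side and 4 to 28 on the somatodendritic side. Dync1h1, despite its high FPKM, rested on 6.31 to 108 on the axonal side and 1.47 to 49.6 on the somatodendritic side. Dync1i1 rested on 0.0247 to 11.01 on the axonal side and 0.368 to 2.78 on the somatodendritic side, where a number below 1 means that 1 SD was larger than the value itself. The lower bound was 0 in 5 of 12 libraries for Dctn3 and in 4 for Dctn1, and in none for Dynll2.

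**Figure D4:**
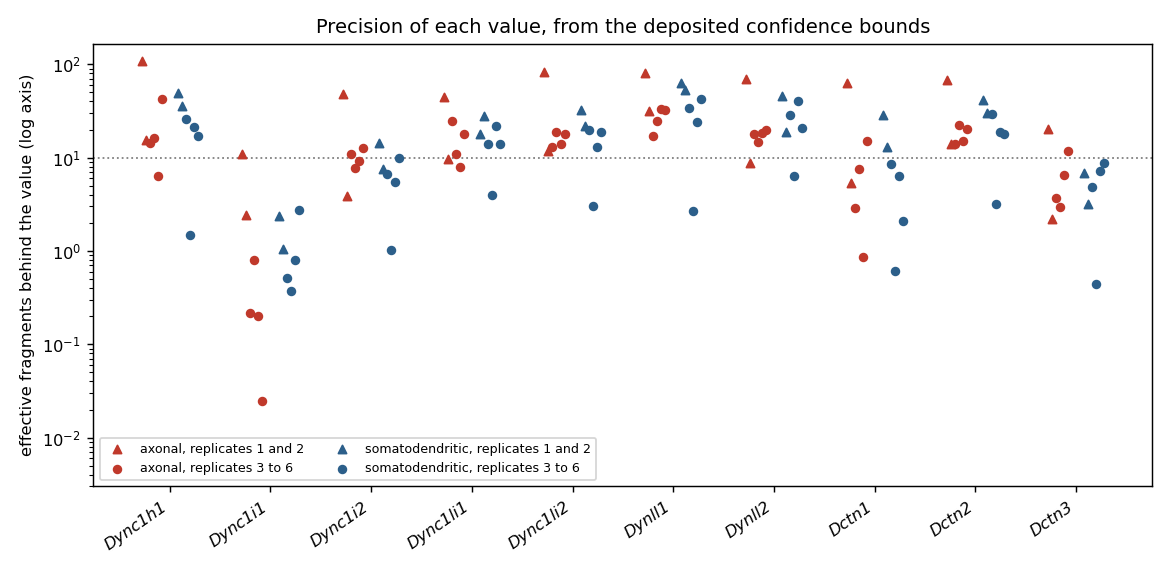
Effective fragments behind each value on a log axis, from the deposited confidence bounds, for the 10 members in each library, with a dotted line at 10. Axonal replicate 1 is highest and somatodendritic replicate 4 lowest on its side for each member, and Dync1i1 has the smallest numbers.

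These bounds put the spread between libraries into proportion. For Dync1li1 in axonal libraries the SD between libraries was 2.25 times that given by the bounds, for Dync1h1 1.82 times, for Dynll2 1.61 times and for Dynll1 1.55 times. The same ratio was 0.723 for Dync1h1 in somatodendritic libraries, and it was 0.572 and 0.403 for Dync1i1 in axonal and somatodendritic libraries. The 95% intervals of the members are not adjusted for the number of genes tested. Differences within these intervals, and larger ones, could have gone uncalled with these 12 libraries.

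The remaining subunits of the complexes and the proteins they work with were described by lists. Of 16 other dynein and dynactin subunits, 15 were tested and 0 passed the limma test in either direction. An unadjusted limma p below 0.05 was found for 0 of them, against 8.84% of all tested genes. Of the 15, 12 (80%) had log2 fold changes above 0, against 61.5% of all tested genes. The median was 0.30, which is 0.10 above that of all genes. Dynlrb1, a roadblock light chain, was the most abundant of them at 473 ± 72.2 scaled FPKM on the axonal side and 484 ± 138 on the somatodendritic side (SD, n = 6 each). The smallest p-values of the list belonged to Dynlt1c, Dynlt1a and Dynlt1b, Tctex-type light chain genes that are near-identical copies, so the split of reads between them is uncertain. These genes and the related Dynlt1f (log2 fold change 0.67) are among the genes above 0, so that count does not rest on separate genes alone. Dynlt1c stood at 7.95 ± 2.33 on the axonal side and 4.19 ± 1.25 on the somatodendritic side (SD, n = 6 each; log2 fold change 0.78, limma adjusted p = 0.587). Dynlt1a stood at 9.72 ± 2.27 on the axonal side and 5.62 ± 2.84 on the somatodendritic side (limma adjusted p = 0.595), and Dynlt1b at 16.3 ± 3.59 on the axonal side and 10.4 ± 3.80 on the somatodendritic side (limma adjusted p = 0.605; SD, n = 6 each).

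Of 26 cofactors and adaptors of dynein, 23 were tested and 0 passed the limma test. Log2 fold changes were above 0 for 12 (52.2%, against 61.5% of all tested genes) and below 0 for 11, with a median of 0.03. The median is 0.17 below that of all genes. At an unadjusted p of 0.05 a single gene lay on each side, 8.70% of the 23, which is close to the 8.84% of all tested genes, so the values that follow are descriptions. Nde1, which works with Lis1 on the motor domain, had 15.3 ± 12.8 scaled FPKM on the axonal side and 4.01 ± 2.95 on the somatodendritic side (SD, n = 6 each; log2 fold change 1.58, limma adjusted p = 0.521). Hap1, which joins huntingtin to dynactin, had 54.7 ± 9.41 on the axonal side and 79.6 ± 23.5 on the somatodendritic side (SD, n = 6 each; log2 fold change -0.50, limma adjusted p = 0.544). Htt, which encodes huntingtin itself, had 12.6 ± 8.45 on the axonal side and 4.96 ± 2.08 on the somatodendritic side (SD, n = 6 each; limma adjusted p = 0.586). Groups overlapped for all 3 genes.

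Kinesins carry cargo the other way, from the cell body outward, and 14 genes of axonal kinesins were set beside the dynein subunits. Of these, 0 passed the limma test, 1 (Kif1a) had an unadjusted p below 0.05, 9 had log2 fold changes above 0 and the median was 0.15, which is 0.05 below that of all genes. The shares of 7.14% with an unadjusted p below 0.05 and 64.3% above 0 compare with 8.84% and 61.5% of all tested genes. Kif1a, a motor for vesicle precursors, reached 1429 scaled FPKM in axonal replicate 2 and 167 to 284 in the other axonal libraries, against 118 to 158 in somatodendritic libraries, so that its groups did not overlap, as in 0.418% of tested genes (log2 fold change 1.11, limma adjusted p = 0.456). Kif5c, a kinesin-1 heavy chain, stood at 684 in axonal replicate 2 and 186 to 239 in the other axonal libraries, against 122 to 218 in somatodendritic libraries (limma adjusted p = 0.572). The kinesin light chain Klc1 had 118 ± 40.6 on the axonal side and 157 ± 29.7 on the somatodendritic side (SD, n = 6 each; log2 fold change -0.47, limma adjusted p = 0.605). The log2 ratio of Dync1h1 to the sum of Kif5a, Kif5b and Kif5c was -1.05 ± 0.83 on the axonal side and -0.46 ± 0.20 on the somatodendritic side (SD, n = 6 each). The summed kinesin-1 heavy chains exceeded Dync1h1 in all 12 libraries. The difference of -0.59 did not pass the exact permutation test (p = 0.130, adjusted p = 0.455). Leaving out single libraries moved it between -0.80 (without axonal replicate 6, exact permutation adjusted p = 0.0758) and -0.32 (without axonal replicate 2).

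Genes whose levels ran most like Dync1h1 were found by Pearson r over the 12 libraries among 7014 protein-coding genes, whose median r was 0.10. The points share the scaling and differ in depth, and genes were ranked on these same libraries, so the values are a description. The highest were Unc13a, a synaptic vesicle priming factor, at 0.922, Ncoa3, a nuclear receptor coactivator, at 0.901, Disp2 at 0.896, the phosphodiesterase gene Pde4d at 0.885 and the microtubule-associated protein gene Map1b at 0.850. Within the 8 libraries of replicates 3 to 6 these r were 0.942, 0.921, 0.922, 0.903 and 0.852. The median r with Dync1h1 was -0.02 for genes whose longest transcript had up to 2000 bases and 0.22 for those over 8000 bases. Axonal replicate 5, where Dync1h1 was lowest, also had the lowest level of these longest genes relative to the shortest, a median log2 difference of -1.21 against -0.93 to -0.27 in the other 11 libraries. The part of transcript length in the pattern of Dync1h1 was not tested. Among the 45 pairs of members the median r was -0.0067, from -0.48 for Dctn1 with Dctn3 to 0.69 for Dync1i2 with Dctn3, and 22 pairs were above 0.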

How the data were processed

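The authors deposited a table per library with FPKM and its confidence bounds for each gene, per the file headers. The submitters' processing notes name GRCm38, FastQC 0.10.1 and Cufflinks 2.2.1. The strand and annotation release, like the aligner settings, were not given in the sources used here. Since FPKM is taken against the total of its own library, much mitochondrial RNA lowers the FPKM of other genes.

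The members and lists were chosen with earlier results of these data known. Each library was divided by a median-of-ratios factor, genes with a mean of at least 1 scaled FPKM were kept (14122), and log2(scaled FPKM + 1) was tested with limma 3.58.1 in R 4.3.3 as a two-sided test of the compartment, with trend and robust moderation and Benjamini-Hochberg adjustment at 0.05. FPKM is no count, so count tests were not used. Ratios were compared by exact permutation over 924 arrangements, of which the smallest possible p is 0.00216. Software was scipy 1.17.1, numpy 2.4.6, pandas 2.3.3 and matplotlib 3.10.9 in Python 3.11.15.

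Effective fragments were computed as the square of 2 times FPKM over the distance to its upper bound, and cover counting error and the sharing of fragments between transcripts only. Depth is the median of effective fragments over FPKM times length in genes with a single GENCODE M21 transcript over 2000 bases. Coding sequences are from GENCODE M21 and were aligned with Biopython 1.88.

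All 10 members were named, with the 3 genes of smallest limma p in each list and the 5 protein-coding genes of highest r with Dync1h1 (mean of at least 5 scaled FPKM, above 0 in at least 10 libraries). Dynlrb1 and Dynlt1f were named after their values were seen. Alternatives were FPKM as deposited, a common protein-coding sum, pseudocounts of 0.1 and 5, no filter or a minimum mean of 5, a replicate block, a term for replicates 1 and 2 against 3 to 6, replicates 3 to 6 alone, libraries left out, plain moderation and the exact test. For ratios, the term for the replicate sets was replaced by the mean of the differences within each set, with the sets counted equally. Replicates 1 and 2 alone were added after seeing the data.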

Additional observations from a re-analysis of the deposited data

Results flagged for a closer look

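Among 34 groups of 6 values examined for a library far from the others (the 10 members and 7 ratios on each side), a single value was apart, and chance marks about 1 in 20 groups. It was Dync1li1 in axonal replicate 3, at 47.7 scaled FPKM, whose gap to the next axonal value of 21.1 was 0.797 of the group's range and above Dixon's 95% limit for 6 values. The value rested on 25.0 effective fragments, and its deposited bounds, scaled in the same way, ran from 28.6 to 66.8. Without this library the log2 fold change of Dync1li1, axonal minus somatodendritic, was -0.48, against -0.23 with it.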

How the results depend on the processing

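Over the alternatives 0 members were called throughout, although the exact permutation test could call none. With the replicate number as a replicate block the count was also 0, and the block changed no call of a member, list or ratio. For ratios the block had 64 arrangements and a smallest possible exact p of 0.03125. A single ratio could therefore not pass after adjustment over the 7. Over all genes the block raised the calls to 5, against 1. Over all alternatives these calls numbered 0 to 11 (0 by the exact permutation test and in replicates 1 and 2 alone). Same-numbered libraries deviated together with r of 0.000411 to 0.242, over 0.1 in 1 of 6 pairs. Of the 6 axonal libraries, 3 were most like their own number. The labels state no pairing, and r between shallow libraries cannot decide whether the numbers pair the samples.

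Some log2 fold changes turned sign. Dync1li2 was -0.23 with FPKM as deposited and -0.17 with a common sum, and -0.06 to 0.0661 when single libraries were left out. Dctn3 was 0.24 without axonal replicates 1 and 2 and -0.23 to 0.17 with single libraries left out (above 0 without axonal replicate 2 or 4 or somatodendritic replicate 5 or 6), and Dync1h1 was -0.27 to 0.0864 (above 0 without axonal replicate 5). The ratio of Dynll1 to Dynll2 differed by -0.0328 without axonal replicates 1 and 2 and by -0.0587 to 0.41 with single libraries left out (below 0 without axonal replicate 2 or somatodendritic replicate 4). On leaving out single libraries, the difference was -0.23 to 0.20 for Dctn1 to Dctn2, -0.0098 to 0.45 for Dctn3 to Dctn2 and -1.57 to -0.68 for Dync1i1 to Dync1i2, whose adjusted p ranged from 0.0455 to 1 over all alternatives. The median of the other subunits, relative to all genes, was 0.47 in replicates 3 to 6 and 0.39 without axonal replicates 1 and 2, against 0.10. That of the cofactors and adaptors was -0.0376 with a pseudocount of 5 and -0.033 in replicates 1 and 2 alone, against -0.17. In replicates 1 and 2 alone the sign also turned for Dync1i1 (0.60), Dync1li2 (-0.051) and Dctn3 (0.12), and for the differences in the ratios of Dync1i1 to Dync1i2 (0.34), Dynll1 to Dynll2 (-0.0904) and Dctn1 to Dctn2 (0.0775). The causes were not tested. Of the other values, 233 for single genes and 372 for comparisons kept their direction and call or moved by less than the spread. A deposited lower bound of 0 was most frequent for Dync1i1 (11 libraries), followed by Dctn3 (5) and Dctn1 (4). The bounds cover counting error and the sharing of fragments between transcripts, and the part of depth was not tested.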

Other observations

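Of 25 genes for dyneins of cilia and flagella 23 were in the tables and 6 reached the minimum mean for a test, and 0 of these passed the limma test (median log2 fold change, axonal minus somatodendritic, 0.23, or 0.03 relative to all genes). Dync2h1, the heavy chain of the motor that works inside cilia, stood at 1.76 to 6.61 scaled FPKM in axonal libraries and 0 to 3.57 in somatodendritic libraries (limma adjusted p = 0.712). Wdr34, an intermediate chain of that motor, had the highest mean of the tested genes in this list, 10.9 ± 7.11 on the axonal side and 13.4 ± 9.43 on the somatodendritic side (SD, n = 6 each; limma adjusted p = 0.992), where Dync1i1 averaged 8.19 and 13.2. Dnaic1, an intermediate chain of motile cilia, was listed at 7.36 and 18.3 in axonal replicates 4 and 6 and 9.53 in somatodendritic replicate 6, and at 0 in the other 9 libraries. Tctex1d2, a light chain, was listed at 0 in 2 axonal and 2 somatodendritic libraries and reached 12.9 in axonal and 9.03 in somatodendritic libraries. Cytoplasmic Dync1h1 stood at 82.5 scaled FPKM or more in each library while ciliary Dync2h1 stayed at or below 6.61.

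Smn1, the target of the knockdown, was listed above 0 in 5 of 6 axonal and 2 of 6 somatodendritic libraries. It stood at 56.2 scaled FPKM in axonal replicate 5, against 17.5 or less in the other axonal libraries and 15.6 or less in somatodendritic libraries. Axonal replicate 5 also had the lowest Dync1h1 and Dctn1 values, the latter resting on 0.872 effective fragments with a lower bound of 0. The same library had the lowest level of the longest genes relative to the shortest (median log2 difference -1.21). A link of these values to Smn1 was not tested. Since no libraries of neurons without the knockdown were analysed here, how far the knockdown reached was not measured.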
